A study of Homo sapiens with 6 samples.

Results

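Replication-dependent histone genes encode the bulk of the core histones H2A, H2B, H3 and H4 and the linker histone H1. Members were the genes whose symbol in the platform annotation began with HIST1H, HIST2H or HIST3H, read only from probe sets that name 1 gene; the newer spellings of these symbols did not occur there. The rule gave 60 genes of the 18656 genes measured, read by 183 probe sets. They comprised 6 H1, 14 H2A, 19 H2B, 11 H3 and 10 H4 genes. By cluster, 52 carried the HIST1 prefix, 5 the HIST2 prefix and 3 the HIST3 prefix, and 1 of the 60, HIST2H2BA, is annotated as a transcribed pseudogene. The rule used symbols and not values, but it was set with earlier results of these data known.

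AGS, an established human gastric adenocarcinoma cell line, was profiled on 6 Affymetrix Human Gene 1.0 ST arrays. In 3 samples the cells received an inhibitor of the microRNA miR-25-3p, and in 3 samples a non-targeting control RNA. Both were delivered by lipid transfection, repeated after 24 h, and RNA was collected at 48 h, counted from the first delivery. The labels name the 3 samples of a group biological replicates of the same line, so all values describe 1 cell line at 1 time. The comparison asks which transcripts differ in cells given the inhibitor. The mature microRNA was not measured, so these arrays do not show how far it was inhibited. Its RefSeq sequence is shown because it is the molecule the inhibitor is directed at, with the seed (bases 2 to 8), the part that pairs with targets, in capitals.
hsa-miR-25-3p, GRCh38.p14 chr7:100093571-100093592, minus strand: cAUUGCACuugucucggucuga

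Histone messages of this class accumulate in S phase, when new DNA must be packaged, and are degraded as replication ends. Most lack a poly(A) tail and end in a stem-loop bound by SLBP, the stem-loop binding protein. Transcription is organised by NPAT, a coactivator phosphorylated by cyclin E and CDK2. In RNA from a whole culture, fewer cells in S phase and less histone RNA per cell cannot be told apart.

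No histone gene was called different between the groups. In limma's test across all genes, 0 of 60 members were higher and 0 lower at an adjusted p under 0.05, against a background of 0% of genes in either direction, and the smallest adjusted p of a member was 0.788. At an unadjusted p under 0.05, 4 members stood out, 2 positive and 2 negative, or 6.67% of members against 6.12% of all genes. Of all genes, 2.95% were positive and 3.16% negative at this level. The members' median difference, inhibitor minus control, was -0.016 on the log2 scale, and that of all genes was 0.0021. The middle 50% of members lay between -0.11 and 0.051, and that of all genes between -0.089 and 0.094. A positive difference was found for 24 members and a negative one for 36, where 50.5% of all genes were positive.

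The members' values, averaged over the 60 genes, were 6.08, 6.16 and 6.16 in the inhibitor arrays and 6.07, 6.20 and 6.14 in the control arrays. These averages overlapped between the groups. Their means were 6.13 ± 0.047 and 6.14 ± 0.064 (SD, n = 3 each) in inhibitor and control arrays. The 95% interval of the difference in gene value lay within 1 log2 unit, 2-fold on this scale, for 59 members and within 0.5 for 48. The exception to the first was HIST1H2AD, whose interval ran from -0.33 to 1.60. Such an interval bounds the mean of a gene's probe sets, some of them dim, and not the fold change of its RNA. A gene's value is the mean of its probe sets, and its height depends on the probes, so the values of different genes are not compared as amounts of RNA.

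**Figure D1:**
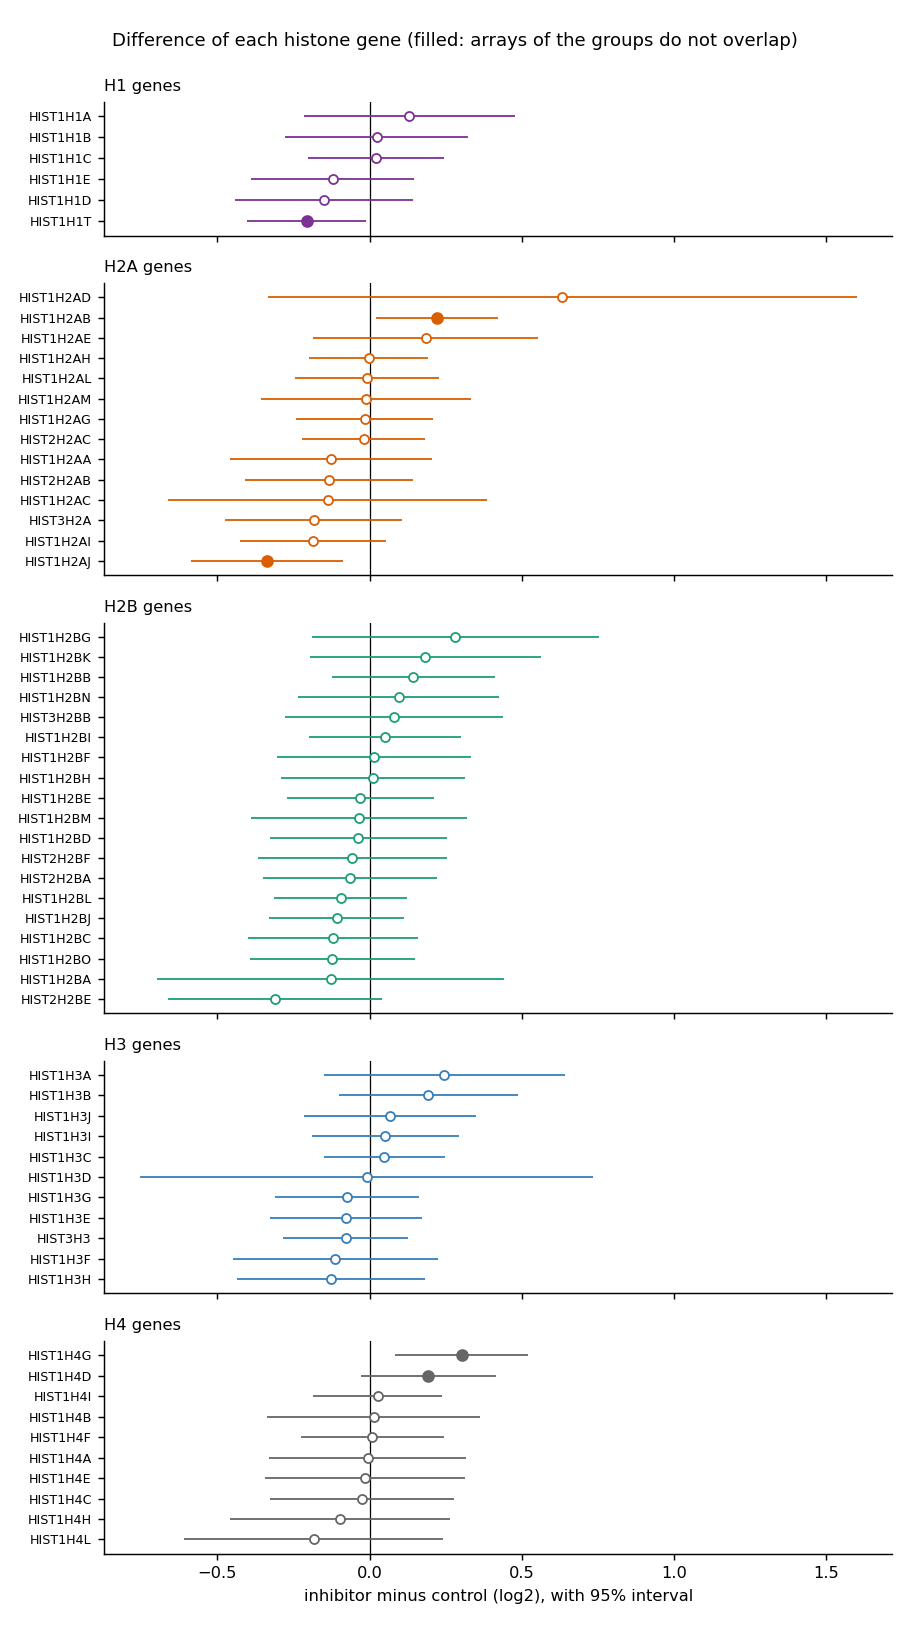
Difference between inhibitor and control arrays (log2, x axis) for each of the 60 histone genes, in 1 panel per histone family, with its 95% interval from limma. Filled points mark the 5 genes with no overlap between groups. Most points lie near 0, and 4 intervals leave it out, 2 on each side.

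Linker histones, which bind the DNA between nucleosomes, gave 3 positive and 3 negative differences among 6 genes, with a median of -0.050. HIST1H1E (H1-4), which encodes the linker histone H1.4 and had the strongest signal of this family, measured 10.73, 10.97 and 10.61 in inhibitor arrays, against 10.82, 11.03 and 10.82 in control arrays. The arrays overlapped, the difference was -0.12 (SE 0.12, adjusted p = 0.858), and all 4 of its probe sets were negative. HIST1H1T (H1-6), the testis form of H1, measured 3.22, 3.09 and 3.14 in inhibitor arrays, against 3.31, 3.40 and 3.36 in control arrays. The inhibitor arrays were each below the lowest control array, with a difference of -0.21 (SE 0.086, adjusted p = 0.788), at a signal below the median of all genes, 5.77. With its brightest probe set alone the difference was -0.14. HIST1H1D (H1-3) gave -0.15 (SE 0.13), HIST1H1A (H1-1) 0.13 (SE 0.15) and HIST1H1C (H1-2) 0.022 (SE 0.098). The remaining gene, HIST1H1B (H1-5), gave 0.023.

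H2A genes, whose product pairs with H2B in the nucleosome, gave 3 positive and 11 negative differences, with a median of -0.018. HIST1H2AJ (H2AC14) measured 7.865, 7.88 and 7.725 in inhibitor arrays, against 7.995, 8.145 and 8.34 in control arrays. The groups did not overlap, and the difference was -0.34 (SE 0.11, adjusted p = 0.788). HIST1H2AB (H2AC4) measured 6.45, 6.475 and 6.615 in inhibitor arrays, against 6.315, 6.305 and 6.26 in control arrays. Here the lowest inhibitor array was above the highest control array, with a difference of 0.22 (SE 0.088, adjusted p = 0.788) and both probe sets positive. HIST1H2AD (H2AC7) had the widest gap of means, 0.63 (SE 0.42, adjusted p = 0.806), but its arrays read 3.74, 2.03 and 3.38 with the inhibitor, against 2.715, 1.775 and 2.76 in control arrays, and overlapped. Leaving out single arrays gave 0.29 (without inhibitor replicate 1) to 1.14 (without inhibitor replicate 2), and 0.31 without control replicate 2. HIST1H2AI (H2AC13) gave -0.19 (SE 0.10), and HIST2H2AC (H2AC20), of the strongest signal in this family, -0.020 (SE 0.088). The other H2A genes lay between -0.18 and 0.18.

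H2B was the family with the most genes, 8 positive and 11 negative, with a median of -0.036 and no gene whose groups of arrays were separate. HIST2H2BE (H2BC21) measured 5.83, 5.58 and 6.05 in inhibitor arrays, against 5.905, 6.38 and 6.10 in control arrays, a difference of -0.31 (SE 0.15, adjusted p = 0.788). HIST1H2BG (H2BC8) gave the opposite sign, 6.69, 6.03 and 6.49 in inhibitor arrays against 5.72, 6.38 and 6.26 in control arrays, a difference of 0.28 (SE 0.21, adjusted p = 0.819). It was 0.084 without control replicate 1, 0.14 without inhibitor replicate 1 and 0.47 without inhibitor replicate 2. In both genes 1 inhibitor array or more fell within the range of the control arrays. HIST1H2BB (H2BC3) gave 0.14 (SE 0.12), HIST1H2BJ (H2BC11) -0.11 (SE 0.097) and HIST1H2BH (H2BC9), of the strongest signal, 0.010 (SE 0.13). HIST1H2BA (H2BC1), the testis form of H2B, gave -0.13 at a signal near 2.30, and the pseudogene HIST2H2BA (H2BP1) -0.063.

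H3, which carries most of the well-studied tail modifications, gave 5 positive and 6 negative differences and a median of -0.010. HIST1H3I (H3C11), with the strongest signal, measured 10.735, 10.965 and 10.895 in inhibitor arrays, against 10.705, 10.96 and 10.775 in control arrays. These overlapped closely, with a difference of 0.052 (SE 0.11, adjusted p = 0.937) and a 95% interval from -0.19 to 0.29. HIST1H3A (H3C1) gave 0.25 (SE 0.17) and HIST1H3B (H3C2) 0.19 (SE 0.13). HIST1H3H (H3C10) gave -0.13 (SE 0.13), and HIST3H3 (H3-4), the testis form of H3, -0.079 (SE 0.090).

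H4, the partner of H3, gave 5 positive and 5 negative differences and a median of 0.0011. HIST1H4G (H4C7) measured 3.90, 3.99 and 3.88 in inhibitor arrays, against 3.60, 3.51 and 3.75 in control arrays. The groups did not overlap, with a difference of 0.30 (SE 0.096, adjusted p = 0.788), again at a signal below the median of all genes. The difference was 0.11 with its brightest probe set alone and 0.51 with the median of its probe sets. HIST1H4D (H4C4), with the strongest signal in this family, measured 9.06, 9.055 and 9.07 in inhibitor arrays, against 9.03, 8.78 and 8.795 in control arrays. The groups were separate by only 0.025 at the nearest arrays, and the difference was 0.19 (SE 0.097, adjusted p = 0.788). HIST1H4L (H4C13) gave -0.18 (SE 0.19) and HIST1H4H (H4C8) -0.097 (SE 0.16).

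In all, the arrays of the groups did not overlap for 5 of 60 members (8.33%), 3 higher and 2 lower with the inhibitor. Over all genes the same was true of 12.9%, with 5.19% higher and 7.68% lower.

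**Figure D2:**
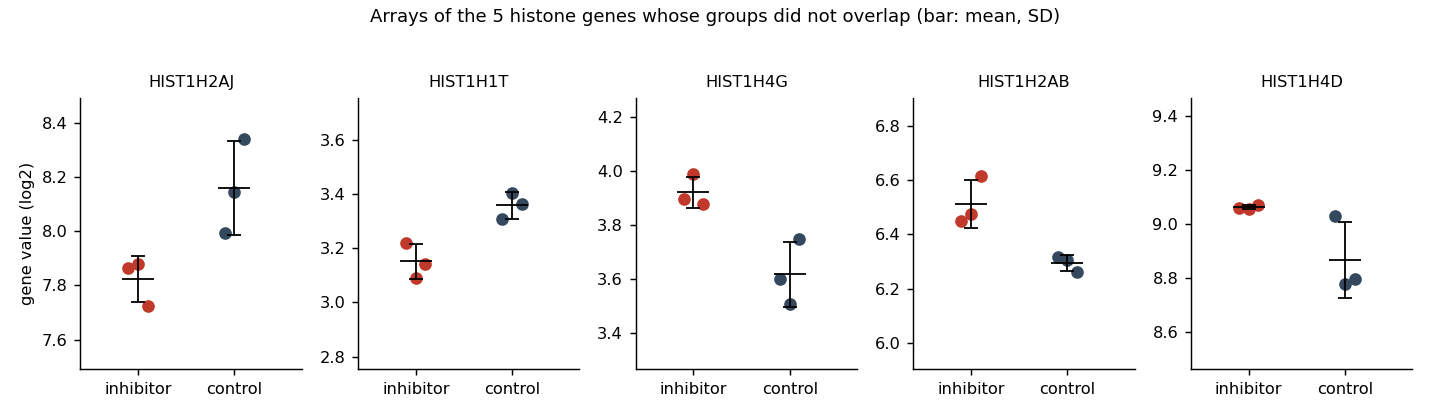
Gene value (log2, y axis; each panel spans 1 log2 unit) on each array for the 5 histone genes whose groups did not overlap, with inhibitor arrays left and control arrays right; bars give the mean and SD of 3 arrays. HIST1H2AJ and HIST1H1T are lower with the inhibitor, and HIST1H4G, HIST1H2AB and HIST1H4D higher.

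The promoters of these 5 genes are shown because they are the members with separate arrays, from 250 bases before to 50 after each gene start, from RefSeq on GRCh38.p14. Capitals mark the 4 motifs searched on both strands: the TATA box (TATAAA), the CCAAT box (CCAAT), the octamer read by POU2F1 (ATTTGCAT) and the AC box of H1 genes (AAACACA). No motif overlapped another in these windows.
HIST1H2AJ promoter, chr6:27814728-27815027, minus strand: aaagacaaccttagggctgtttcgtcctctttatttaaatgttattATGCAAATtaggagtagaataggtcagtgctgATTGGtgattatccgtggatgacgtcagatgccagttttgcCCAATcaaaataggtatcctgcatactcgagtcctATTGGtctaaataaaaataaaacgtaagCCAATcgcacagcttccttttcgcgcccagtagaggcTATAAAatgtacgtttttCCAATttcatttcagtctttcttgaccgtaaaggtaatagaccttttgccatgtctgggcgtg
HIST1H1T promoter, chr6:26108086-26108385, minus strand: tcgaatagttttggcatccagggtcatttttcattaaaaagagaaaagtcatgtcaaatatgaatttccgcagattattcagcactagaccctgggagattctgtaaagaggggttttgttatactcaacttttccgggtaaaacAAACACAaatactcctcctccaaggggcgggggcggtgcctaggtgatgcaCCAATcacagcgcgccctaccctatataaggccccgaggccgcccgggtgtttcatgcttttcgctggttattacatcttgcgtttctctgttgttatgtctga
HIST1H4G promoter, chr6:26246947-26247246, minus strand: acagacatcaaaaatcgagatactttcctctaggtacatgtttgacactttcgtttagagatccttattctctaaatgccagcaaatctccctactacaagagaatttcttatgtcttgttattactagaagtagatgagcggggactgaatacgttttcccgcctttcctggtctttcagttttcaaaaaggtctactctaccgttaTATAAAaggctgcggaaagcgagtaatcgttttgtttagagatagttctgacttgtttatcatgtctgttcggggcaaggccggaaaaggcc
HIST1H2AB promoter, chr6:26033569-26033868, minus strand: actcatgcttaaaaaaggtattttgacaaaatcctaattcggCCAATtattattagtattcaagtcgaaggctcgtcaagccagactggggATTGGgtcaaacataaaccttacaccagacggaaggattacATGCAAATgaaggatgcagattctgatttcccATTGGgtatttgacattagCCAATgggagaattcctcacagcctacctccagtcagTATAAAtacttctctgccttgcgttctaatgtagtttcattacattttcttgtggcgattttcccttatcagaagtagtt
HIST1H4D promoter, chr6:26189063-26189362, minus strand: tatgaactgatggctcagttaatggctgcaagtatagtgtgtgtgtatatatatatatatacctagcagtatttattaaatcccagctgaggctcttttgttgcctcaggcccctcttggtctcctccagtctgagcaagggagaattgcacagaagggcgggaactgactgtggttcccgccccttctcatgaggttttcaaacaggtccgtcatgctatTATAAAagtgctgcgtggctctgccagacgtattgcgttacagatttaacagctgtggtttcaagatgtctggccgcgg

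HIST1H2AJ and HIST1H2AB, whose differences had opposite signs, both held the octamer, a TATA box and several CCAAT boxes. By these exact letters, HIST1H4G and HIST1H4D held a TATA box alone, and HIST1H1T the AC box with 1 CCAAT box. Variant letters, such as tataag in HIST1H1T, were not searched. A promoter was found for 54 of 60 members, and HIST1H2AH, HIST1H3I, HIST1H3J, HIST1H4A, HIST1H4C and HIST2H2BA had no entry. TATAAA occurred in 64.8% of member promoters and 12% of all 27305 promoters, and CCAAT in 90.7% of member promoters and 35.7% of all. Every H1, H2A, H2B and H3 promoter held CCAAT, but only 3 of 8 H4 promoters (37.5%) did. The octamer occurred in 11 of 13 H2A and 14 of 18 H2B promoters, in 1 of 9 H3 promoters and in 0 of 6 H1 and 0 of 8 H4 promoters, against 1.8% of all. The AC box occurred in 6 of 6 H1 promoters and 1 of the other 48, in an H2A gene, against 5.76% of all. A match is a description of the letters, not a site shown to be bound.

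Many H2A and H2B genes lie head to head and share the stretch between their starts, so their promoters are not separate observations. In the RefSeq promoter table, 10 H2A and H2B pairs had starts 215 to 248 bases apart on opposite strands, and 1 further pair joined HIST1H3D to HIST1H2BF. Of these 11 pairs, 9 had differences of 1 sign and 2 of opposite sign. HIST1H2BF was counted with both HIST1H2AD and HIST1H3D. Some differences lay near 0, such as 0.016 for HIST1H2BF and -0.011 for HIST1H2AM. Of all 60 members, 36 were negative, as were 11 of the 14 H2A genes. How often unpaired genes shared a sign was not tested. HIST1H2AE and HIST1H2BG gave 0.18 and 0.28, and HIST1H2AC and HIST1H2BC gave -0.14 and -0.12. HIST1H2AJ, at -0.34, had as its partner HIST1H2BM, at -0.036. HIST2H2AC and HIST2H2BE gave -0.020 and -0.31. No gene of a pair was called.

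The genes' values rested on few and unequal probe sets. Members had 1 to 6 probe sets, against a median of 10 over all genes, and 3 members had only 1. Within a member the signals of its probe sets spanned a median of 5.40 log2 units and up to 9.79. Counting repeated values once, 56 members had 2 or more probe sets, and these were all positive in 10 members and all negative in 9. The 180 distinct probe sets were positive in 77 cases, negative in 101 and at 0 in 2, where 49.7% of all single-gene probe sets were positive. In HIST1H2AI, HIST1H3H and HIST2H2BF, 2 listed probe sets held the same values on every array, so each such gene had 1 measurement fewer than listed.

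HIST1H2AJ turned on this. Its dim probe set read 3.70, 3.69 and 3.61 in inhibitor arrays, against 4.24, 4.36 and 4.73 in control arrays, a difference of -0.78. Its bright probe set read 12.03, 12.07 and 11.84 in inhibitor arrays, against 11.75, 11.93 and 11.95 in control arrays, a difference of 0.10. With the brightest probe set alone the gene therefore had the opposite sign, 0.10 (adjusted p = 0.901).

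HIST2H2BE and HIST1H2BG were uneven as well. In HIST2H2BE 1 of 4 probe sets read 4.20, 3.81 and 4.52 in inhibitor arrays, against 5.03, 5.44 and 5.12 in control arrays, a difference of -1.02. Its brightest gave -0.31 and another 0.23. In HIST1H2BG 1 of 5 probe sets read 7.08, 6.93 and 7.25 in inhibitor arrays, against 5.33, 6.34 and 6.14 in control arrays, a difference of 1.15, while its brightest gave 0.13 and another -0.42. These probe sets had no adjusted p under 0.05 in limma's test over 224320 single-gene probe sets, where the lowest was 0.704.

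**Figure D3:**
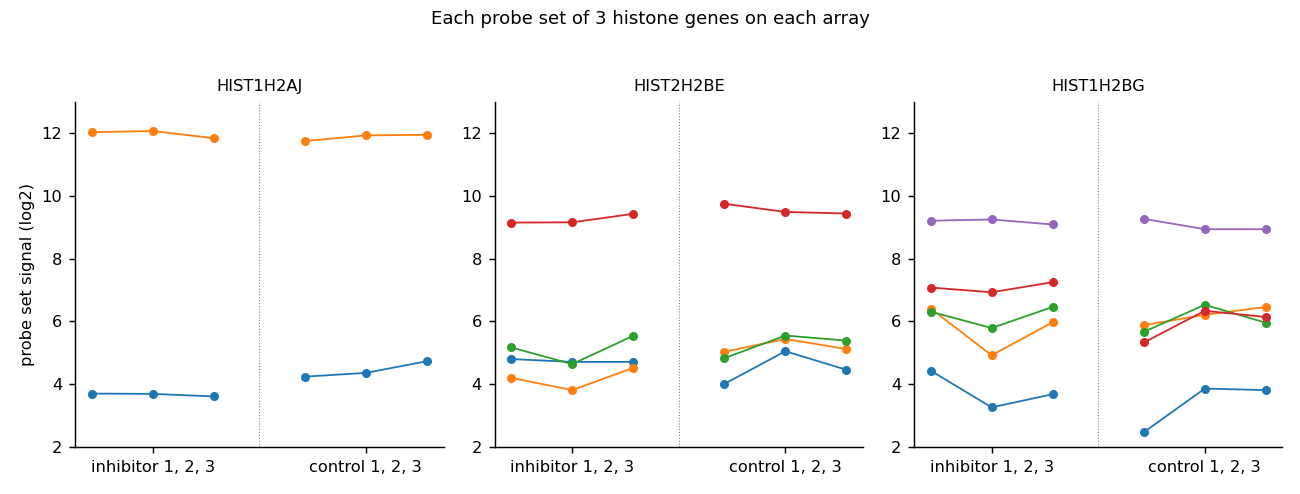
Signal (log2, y axis) of every probe set of HIST1H2AJ, HIST2H2BE and HIST1H2BG on the 3 inhibitor arrays (left of the dotted line) and the 3 control arrays (right), with 1 colour per probe set within a panel. The probe sets of a gene differ widely in height, and they do not move in 1 direction.

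Bright probe sets gave the smaller differences, both among the members and among all single-gene probe sets. Here and in the counts over all 183, the repeated probe sets of HIST1H2AI, HIST1H3H and HIST2H2BF were counted as listed. Of the members' probe sets, 60 from 41 genes had a mean signal of 8 or more. Their differences had a median of -0.0050, an SD of 0.14 and a range from -0.31 to 0.34, and 0 of 60 had an unadjusted p under 0.05 in limma's test, against 3.17% of all single-gene probe sets of that signal; 0 were called after adjustment. The 77 member probe sets under 5 had an SD of 0.37 and a range from -1.08 to 0.90. For all single-gene probe sets the SD was 0.21 at 8 or more and 0.59 under 5. At 8 or more the arrays did not overlap for 6 higher and 3 lower of the 60 member probe sets. For all single-gene probe sets of that signal, this held for 4599 higher and 4935 lower of 59853. Over all 183, an unadjusted p under 0.05 occurred in 7 (3.83%), 2 positive and 5 negative, against 6.21% of all single-gene probe sets, 3.11% positive and 3.09% negative. The arrays did not overlap for 9 higher and 11 lower member probe sets, against 5.89% higher and 6.32% lower over all single-gene probe sets. Neighbouring histone genes have closely similar coding sequences, so a probe set named for 1 gene may also read others; how much was not tested.

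**Figure D4:**
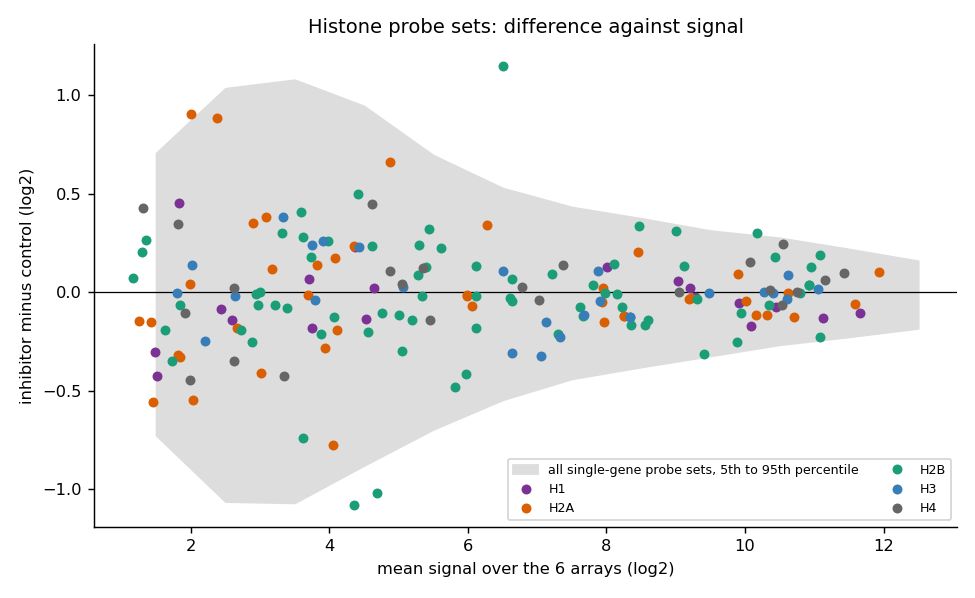
Difference between inhibitor and control arrays (log2, y axis) against mean signal over the 6 arrays (log2, x axis) for the 183 histone probe sets, coloured by family, over the 5th to 95th percentile of all single-gene probe sets (grey). Differences narrow as signal rises, and those at a signal of 8 or more stay between -0.31 and 0.34.

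Probe sets that name several genes stood outside the rule. Those that name a histone gene of the clusters numbered 44, of which 11 repeated the values of another, leaving 33. Of the 33, 17 were positive and 15 negative, where 50.3% of all 257430 probe sets were positive. An unadjusted p under 0.05 occurred in 1 (3.03%), a positive one, against 3.16% positive and 3.04% negative over all probe sets. The arrays did not overlap for that 1 probe set and no other, against 6.04% higher and 6.13% lower over all probe sets. Probe sets for HIST2H2AA3 and HIST2H2AA4 averaged 6.95 ± 0.044 in inhibitor arrays and 6.81 ± 0.18 in control arrays (SD, n = 3 each), and those shared by HIST1H4J and HIST1H4K averaged 10.45 ± 0.34 in inhibitor arrays and 10.53 ± 0.15 in control arrays (SD, n = 3 each). The exception was 1 of 6 distinct probe sets for HIST2H4A and HIST2H4B, a pair of H4 copies. It read 6.44, 6.29 and 6.36 in inhibitor arrays, against 4.97, 5.51 and 5.30 in control arrays. These did not overlap, and the difference was 1.10 (SE 0.18), with an adjusted p of 0.761 in limma's test over all probe sets. The other 5 for this pair lay between -0.50 and 0.16, and the 6 together averaged 7.72 ± 0.17 in inhibitor arrays and 7.58 ± 0.071 in control arrays (SD, n = 3 each).

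Arrays of 1 group differed from each other more than the groups did. Each gene's value was set against its own mean over the 6 arrays. The median of these deviations over the 60 members was -0.088, 0.056 and 0.048 in inhibitor replicates 1, 2 and 3, against -0.034, 0.11 and -0.0081 in control replicates 1, 2 and 3. Over all genes the same medians lay between -0.013 and 0.016, but the normalization itself keeps arrays nearly alike over all genes. How far such medians spread in other sets of 60 genes was not tested. Inhibitor replicate 1 was the lowest array for 17 members and control replicate 1 for 14. Control replicate 2 was the highest for 16 and inhibitor replicate 2 for 15. Over all 18656 genes these counts were 3077 and 4995 for the lowest array, and 3004 and 2697 for the highest. Deviations from group means correlated weakly between members, with a median r of 0.097 over 1770 pairs, 6 arrays each; pairs share arrays and, in part, probe sequence.

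**Figure D5:**
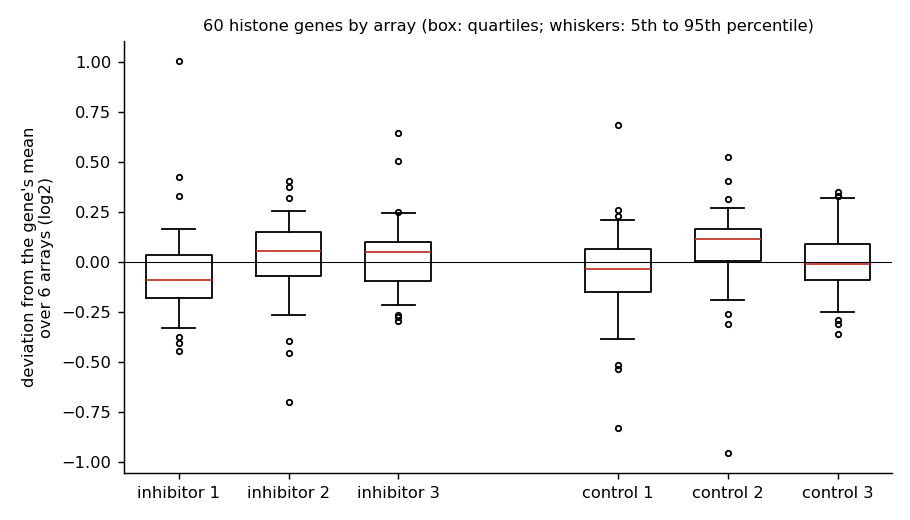
Deviation of each of the 60 histone genes from its own mean over 6 arrays (log2, y axis) on each array, inhibitor arrays left and control arrays right; boxes give quartiles with the median in red, whiskers the 5th to 95th percentile and points the rest. Inhibitor replicate 1 sits lowest and control replicate 2 highest.

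Of 32 measured genes listed for the transcription, 3′ end processing and later fate of histone messages, 0 were called higher and 0 lower. A positive difference was found for 20 and a negative one for 12, and the median was 0.048. Averaged over the 32 genes, values were 7.95, 7.93 and 7.98 in inhibitor arrays, against 7.83, 7.94 and 7.95 in control arrays. These averages overlapped, and control replicate 1 was the lowest array. The arrays did not overlap for 7 of the 32 (21.9%), 4 higher and 3 lower, against 12.9% of all genes. SLBP measured 8.67, 8.73 and 8.66 in inhibitor arrays, against 8.56, 8.70 and 8.60 in control arrays, a difference of 0.066 (SE 0.086, adjusted p = 0.895) with overlapping arrays. NPAT gave 0.14 (SE 0.11), and CASP8AP2, also called FLASH, which acts in histone end processing, 0.097 (SE 0.14). CPSF2, a subunit of the cleavage complex, gave 0.24 (SE 0.089, adjusted p = 0.788), with a 95% interval from 0.036 to 0.44, and SNRPG, an Sm protein of spliceosomal particles, 0.25 (SE 0.11). CPSF1, a subunit of the poly(A) cleavage complex, gave -0.21 (SE 0.099) and POU2F1, the octamer factor, -0.18 (SE 0.089).

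Variant histones, most of them made throughout the cell cycle, were measured for 11 genes, with 0 called in either direction, 8 positive, 3 negative and a median of 0.10. The arrays did not overlap for 3 of the 11 (27.3%), 2 higher and 1 lower, against 12.9% of all genes, 5.19% higher and 7.68% lower. MACROH2A2, a macroH2A variant, measured 4.51, 4.24 and 4.28 in inhibitor arrays, against 3.77, 4.05 and 3.94 in control arrays. The arrays did not overlap, with a difference of 0.43 (SE 0.11, adjusted p = 0.788), but its brightest probe set gave -0.30. The variant gene H2AJ gave 0.18 (SE 0.095), H2AX, the variant phosphorylated at DNA breaks, -0.13 (SE 0.083) and MACROH2A1 -0.11 (SE 0.090).

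Histone chaperones, which carry histones to and from DNA, had 0 of 23 called in either direction. They gave 12 positive and 11 negative differences, with a median of 0.00030. Their arrays did not overlap for 3 (13%), all lower, against 12.9% of all genes, 5.19% higher and 7.68% lower. MMS22L, which acts at replication forks, gave 0.23 (SE 0.14) and the H3-H4 chaperone ASF1A 0.22 (SE 0.15), against -0.25 (SE 0.10) for UBN1, a partner of HIRA, and -0.20 (SE 0.082) for the importin IPO4. DNA replication and S phase genes had 0 of 34 called in either direction, with 22 positive, 12 negative and a median of 0.069. Their arrays did not overlap for 3 (8.82%), all higher, against 12.9% of all genes, 5.19% higher and 7.68% lower. Averaged over the 34 genes, values were 7.94, 7.97 and 7.99 in inhibitor arrays, against 7.83, 7.95 and 7.99 in control arrays. These averages overlapped, and control replicate 1 was the lowest array. GINS2, of the replicative helicase, gave 0.27 (SE 0.11) and the clamp loader subunit RFC4 0.19 (SE 0.085), against -0.23 (SE 0.12) for POLD1 and -0.15 (SE 0.096) for POLE, both DNA polymerase catalytic subunits. The replication genes' median lay above 0 and the histone members' below 0, and neither list held a called gene; the difference between the lists was not tested.

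All 9 epithelial markers examined had a signal above the median of all genes, with KRT8 at 11.97 in inhibitor and 12.03 in control arrays. Among markers of other cells, the mean signal in inhibitor and then control arrays was 4.64 and 4.56 (fibroblast), 5.16 and 5.05 (leukocyte), 3.60 and 3.75 (endothelium), 4.18 and 4.03 (erythroid) and 3.52 and 3.53 (germ line). Their part in the results was not tested. Above the median of all genes, 5.77, were 2 of 6 fibroblast and 2 of 5 leukocyte markers. The endothelial, erythroid and germ line markers all lay below it. In inhibitor and then control arrays COL1A1 measured 6.37 and 6.39, PDGFRA 6.47 and 6.35, and CD68 6.01 and 6.12. The epithelial marker CDX1 measured 6.31 and 6.14. Of the leukocyte markers LYZ had the highest signal, 8.79 in inhibitor and 8.84 in control arrays. Correlations between arrays over all genes were 0.9904 to 0.9948, and control replicate 1 correlated least with the rest.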

How the data were processed

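The authors deposited log2 expression values for 257430 probe sets on 6 arrays (3 inhibitor, 3 control), rounded to 2 decimals. Per the submitters' processing notes, the tools were Affymetrix Expression Console with RMA and Transcriptome Analysis Console, with no version or setting; per the labels' protocols, 500 ng of total RNA per sample was labelled. RMA gives arrays nearly equal distributions and would hide a shift common to most transcripts. Probe sets with 1 symbol (224320) were averaged per gene, giving 18656 genes with symbols updated through RefSeq (GRCh38.p14). Members keep the annotation's symbols; 5 current names with 2 candidates were settled by elimination. The annotation names no genome build, so only promoter and microRNA sequences carry coordinates.

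The groups were compared with lmFit and eBayes of limma 3.58.1, run in R 4.3.3, without a replicate block or a filter on dim genes. P-values were adjusted by Benjamini-Hochberg over the 18656 genes, with a threshold of 0.05. A difference within 1e-09 of 0 was counted as 0. In 10 sets of simulated arrays of 18656 genes, the test recovered 26.8% of log2 changes of size 0.5, 90% of size 1 and 99.4% of size 2. Many genes were changed together in each set, which makes the adjusted threshold easier to pass. Recovery of a lone changed gene was not tested. The members' median SE was 0.13, against 0.11 over all genes, so these shares need not hold for the members. With 3 arrays against 3 an exact test cannot go below p = 0.1, and the number of arrays limits precision.

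Named genes were, per histone family, the 2 with the smallest p in each direction and the one of strongest signal; per other list, the 2 with the smallest p in each direction, with SLBP, NPAT and CASP8AP2; others named in passing were chosen after their values were seen. The members and lists were chosen with earlier results of these data known. Alternatives covered a replicate block, 2 normalizations, other ways of combining probe sets, filters on dim probe sets or genes, the variance estimate and leaving out each array. The study's design names replicates of each group and no pairing, so the arrays were treated as unpaired. Same-numbered arrays deviated from their group means with correlations of -0.032, -0.040 and 0.17, and other pairs across the groups with -0.21 to 0.21. With so few arrays these correlations cannot settle whether arrays were paired.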

Additional observations from a re-analysis of the deposited data

How the results depend on the processing

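No member was called under any of the 14 alternative fits or among single probe sets, and the lowest adjusted p of a member was 0.695 (without the dimmest 30% of genes). At an unadjusted p under 0.05, 2 members were higher and 2 lower. That count of 4 (6.67% of members, against 6.12% of all genes) became 5 with the median of probe sets (8.33% against 5.88%), 1 with the brightest probe set (1.67% against 6.23%), 1 without the dimmest 30% of probe sets (1.82% against 6.53%) and 2 without the dimmest 30% of genes (4.17% against 7.08%). Leaving out arrays gave 1 to 9, with 9 without control replicate 1 (15% against 6.74%), 2 without control replicate 2 (3.33% against 5.07%) and 1 without control replicate 3 (1.67% against 6.81%). Over all genes, leaving out arrays gave 0 to 1 higher calls, the 1 being RGPD4 without control replicate 3. The replicate block gave 0 calls and 3 members at an unadjusted p under 0.05, and it changed no call. The members' median difference stayed between -0.018 and 0.0033 over the alternative fits, at -0.017 for members above the median gene and -0.015 without the pseudogene, and between -0.050 and 0.026 leaving out arrays. Of 43 named genes, 7 were left out by a filter on dim probe sets or genes. The sign was not reversed for 22 under all 14 alternatives and for 5 under those that measured them. The 22 include POU2F1, whose difference of -0.18 became 0 under an alternative other than leaving out an array. Of the 24 named histone genes, 19 moved by over 1.5 times when 1 array was left out and 18 under another alternative. With the brightest probe set the sign turned for HIST1H1C (-0.023), HIST1H1D (0.13), HIST1H2AJ (0.10), HIST1H2BB (-0.017), HIST1H2BH (-0.067), HIST1H4L (0.060), HIST1H4H (0.15), MACROH2A2 (-0.30), H2AX (0.050), POLD1 (0.16) and POLE (0.11). Without the dimmest 30% of probe sets it turned for HIST1H1D (0.13), HIST1H2AJ (0.10), HIST1H2BB (-0.017), HIST1H4L (0.060), HIST1H4H (0.15) and MACROH2A2 (-0.20). With the median of probe sets it turned for HIST1H2BJ (0.29) and HIST3H3 (0.013). Leaving out arrays gave -0.053 to 0.070 for HIST1H1C, -0.066 to 0.012 for HIST2H2AC, -0.098 to 0.11 for HIST1H2BH, -0.0025 to 0.13 for HIST1H3I, -0.25 to 0.082 for HIST1H4H and -0.050 to 0.18 for CASP8AP2. The cause of these turns was not tested.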
